A study of Mus musculus with 6 samples.

Results

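miR-103 and miR-107 were followed in the livers of mice on high-fat diet (HFD), with all rows of the miRNA table taken whose mouse name is miR-103 or miR-107, whatever the arm or locus number. Of 1039 rows, 3 belonged to them, namely mmu-miR-103-3p, mmu-miR-107-3p and mmu-miR-107-5p, and the 3p rows were also summed because their sequences are near-identical. The table covers 6 small RNA libraries from the livers of wild type ICR mice, an outbred stock, aged 30 weeks. Every mouse was on HFD from the start, and after 12 weeks the J group was given JTXK granule, a Chinese herbal formula, by gavage for 8 weeks. The M group was given sterile water. For sequencing the study chose 3 mice from each of these larger groups and states no rule for the choice. No chow-fed mouse is in the table, so the comparison is of treated with untreated HFD mice and does not show what the diet itself did.

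The miRNAs are short RNAs cut from hairpin transcripts, and their seed, the bases next to the 5′ end, chooses the mRNAs they repress. miR-103 and miR-107 lie in introns of genes for pantothenate kinases, the enzymes that begin the synthesis of coenzyme A, which carries the acyl groups of fatty acid metabolism. Both are known as negative regulators of insulin sensitivity in liver and fat, where caveolin-1 is among their targets, and they are raised in the livers of obese mice.

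The mature sequences are given with their seed (bases 2 to 8) in capitals, to show how alike the 3p arms are and that the 5p arm of miR-107 is a different molecule.
mmu-miR-103-3p: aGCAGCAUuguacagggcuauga
mmu-miR-107-3p: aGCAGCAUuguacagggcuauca
mmu-miR-107-5p: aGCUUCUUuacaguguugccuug
All 3 were found in RefSeq (build GRCm38.p6). The 3p sequences share 22 of 23 bases and differ at position 22, counted from 1 at the 5′ end (G22C, the base of mmu-miR-103-3p first). A read that stops before that base matches both, and the sources used here do not state how such reads were counted. Of 1679 mature mouse miRNAs in the RefSeq table, the seed of mmu-miR-103-3p was found only in these 2 (0.119%). The name of the mmu-miR-103-3p row in the file also ends in a substitution, A12G, and RefSeq has A at that position. This ending is not explained in the sources used here, so the row may hold only reads with that change or all reads of the miRNA. Every level of mmu-miR-103-3p, the sum, and each ratio or share with mmu-miR-107-3p is that of the row as deposited.

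mmu-miR-103-3p is made from 2 genes whose reads cannot be told apart. In the GRCm38 annotation of GENCODE, Mir103-1 lies on chromosome 11 (35782396 to 35782481, plus strand) in intron 5 of a Pank3 transcript of 7 exons, and Mir103-2 on chromosome 2 (131288052 to 131288137, plus strand) in intron 2 of a Pank2 transcript of 4 exons. Mir107 lies on chromosome 19 (34820687 to 34820773, minus strand) in intron 5 of a Pank1 transcript of 7 exons. Each hairpin has the strand of its host gene and overlaps 0 exons of it. The 5p arms of the miR-103 hairpins were not analysed here.

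Levels are in RPM, the reads of a miRNA per 1000000 miRNA reads of its library. The libraries held 2626353 to 4314134 miRNA reads, so each 3p row rests on 2028 to 8554 reads a library. M group replicate 1 stood apart from the rest. Its Pearson correlation with the other 5 libraries over all miRNAs tested was 0.931 to 0.941 on log2(RPM + 1), against 0.973 to 0.989 among those 5. Results are therefore also given without it. The title of this library also holds the only code that starts with MX1, and what the code means was not established here. All 5 hepatocyte markers listed were present, and their summed level was 391597 to 419287 RPM in the J group and 392287 to 450543 RPM in the M group. That sum joins members of opposite direction, since the ratio of the J to the M mean was 0.922 for mmu-miR-122-5p and 1.21 for mmu-miR-192-5p. For both the groups did not overlap, as was the case for 13.5% of the miRNAs tested.

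mmu-miR-103-3p was the more abundant member. It had 1594, 1790 and 1702 RPM in J group replicates 1, 2 and 3, and 2656, 1783 and 1991 RPM in the M group replicates in the same order. The J libraries lay close together, while the M libraries were spread by M group replicate 1, and the groups met at J group replicate 2 and M group replicate 2. Over the treated mice the mean was 1696 ± 98.1 RPM (SD, n = 3), and over the untreated mice 2144 ± 456 RPM (SD, n = 3). The log2 fold change of the J group over the M group was -0.32 (standard error 0.19, 95% interval -0.77 to 0.14). By limma its unadjusted p was 0.14 and its adjusted p 0.71. So mmu-miR-103-3p did not pass the thresholds of the study, an absolute log2 fold change above 0.3 with an unadjusted p under 0.05. The study does not state which test gave its sequencing p, so calls by limma here need not match its own. Of the 548 miRNAs tested, 29 passed the thresholds (5.29%), 21 of them lower (3.83%) and 8 of them higher (1.46%) in the J group. By limma 0 of the 548 had an adjusted p under 0.05, while 29 had an unadjusted p under 0.05. DESeq2 gave 2 with an adjusted p under 0.05, and edgeR gave 0.

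mmu-miR-107-3p had 685, 1012 and 739 RPM in the J libraries and 772, 1042 and 1076 RPM in the M libraries. It was low in J group replicates 1 and 3 and in M group replicate 1, and high in the other 3 libraries, so the groups overlapped. Treated mice averaged 812 ± 175 RPM (SD, n = 3) and untreated mice 963 ± 166 RPM (SD, n = 3). The log2 fold change was -0.25 (standard error 0.23, 95% interval -0.79 to 0.29, unadjusted p = 0.31 and adjusted p = 0.73 by limma) and did not pass. Over all miRNAs tested, the median log2 fold change was -0.13 and 58.9% of them were below 0, so a value below 0 was the common case. A log2 fold change as low as that of mmu-miR-103-3p or lower was held by 35.9% of the miRNAs tested, and for mmu-miR-107-3p the share was 40.5%.

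The sum of both does not depend on how reads were divided between them, provided each read was counted once, which is not stated. It was 2280, 2803 and 2441 RPM in the J libraries and 3428, 2825 and 3067 RPM in the M libraries. Every J library was below every M library, as was true, lower in the J group, of 9.31% of the miRNAs tested. The nearest pair was J group replicate 2 and M group replicate 2, only 22.2 RPM apart. Their 95% Wilson intervals were 2748 to 2858 RPM and 2769 to 2882 RPM, so at this depth the gap between them was not detectable. The sum averaged 2508 ± 268 RPM (SD, n = 3) with JTXK and 3107 ± 304 RPM (SD, n = 3) with water, a ratio of 0.807. An exact two-sided permutation test of this difference gave p = 0.1, the smallest that 3 libraries against 3 allow. The log2 fold change was -0.31 (standard error 0.16, 95% interval -0.69 to 0.07), by limma with both rows replaced by their sum. In that limma fit its unadjusted p was 0.095 and its adjusted p 0.71. As a fold, the interval reached from 0.620 to 1.05 and so held no change. Under quantile normalization the log2 fold change of the sum was 0.038, on the other side of 0, while the median of all miRNAs tested was then 0.05.

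**Figure D1:**
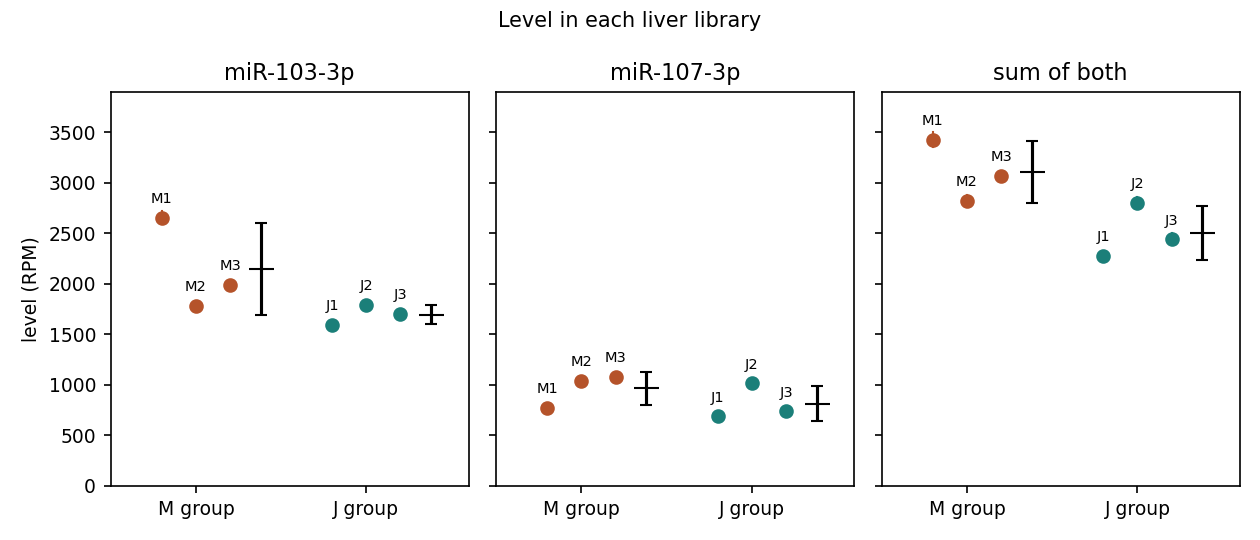
Level in RPM (vertical axis, from 0) of miR-103-3p, miR-107-3p and their sum in each library. Points are single mice with 95% Wilson intervals (mostly hidden by the point), and the bars beside them give the mean and SD of 3 mice. The sum was 2280 to 2803 RPM in the J group and 2825 to 3428 RPM in the M group, while for each miRNA alone the groups overlapped.

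mmu-miR-107-5p, from the opposite arm of the miR-107 hairpin, was almost absent. J group replicates 1, 2 and 3 gave 0, 4 and 0 reads, and those of the M group 0, 2 and 1, which is 1.12 RPM in J group replicate 2 and at most 0.586 RPM in the M group. The libraries with 0 reads allow up to 0.695 RPM in J group replicate 1, 1.07 RPM in J group replicate 3 and 1.14 RPM in M group replicate 1 (3 reads, counting error only). No fold is given, since all but 1 library lay under 3 reads, and the row did not reach the mean of 1 RPM needed for the test. From this hairpin the 3p arm was the product in every library, with 2028 to 4622 reads.

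The proportion of the 3p miRNAs differed between mice of the same group. mmu-miR-103-3p exceeded mmu-miR-107-3p in 6 of 6 libraries, by 1.71 to 3.44 times (p = 0.03125 in an exact paired two-sided permutation test, with no smaller p possible for 6 pairs). Both mature forms have 23 bases in RefSeq, but the lengths of the reads counted in each row are not known here. The row name of mmu-miR-107-3p ends in R1-23L23 and that of mmu-miR-103-3p in a substitution, so the rows may not count reads alike. Ligation and amplification of small RNAs can also favour one sequence over another. As a share of the sum, miR-107-3p made up 30.1%, 36.1% and 30.3% with JTXK, and 22.5%, 36.9% and 35.1% with water. J group replicate 2 lay near M group replicates 2 and 3, the other J libraries lay lower, and M group replicate 1 lay lowest. The 95% Wilson interval of J group replicate 2 (35.2% to 37.1%) was clear of that of J group replicate 1 (29.2% to 31.0%), so the gap between these mice is larger than counting error.
Treated mice averaged 32.2% ± 3.44 (SD, n = 3) and untreated mice 31.5% ± 7.82 (SD, n = 3), with p = 0.9 in an exact two-sided permutation test. The difference of 0.658 percentage points was smaller than the SD of either group when all 6 libraries were used. Without M group replicate 1 it was -3.83 points, larger than the SD of the J group (3.44) and of the 2 M libraries left (1.27), with p = 0.4 in the same exact permutation test. Without J group replicate 2 it was -1.33 points, so its direction rested on single libraries.

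**Figure D2:**
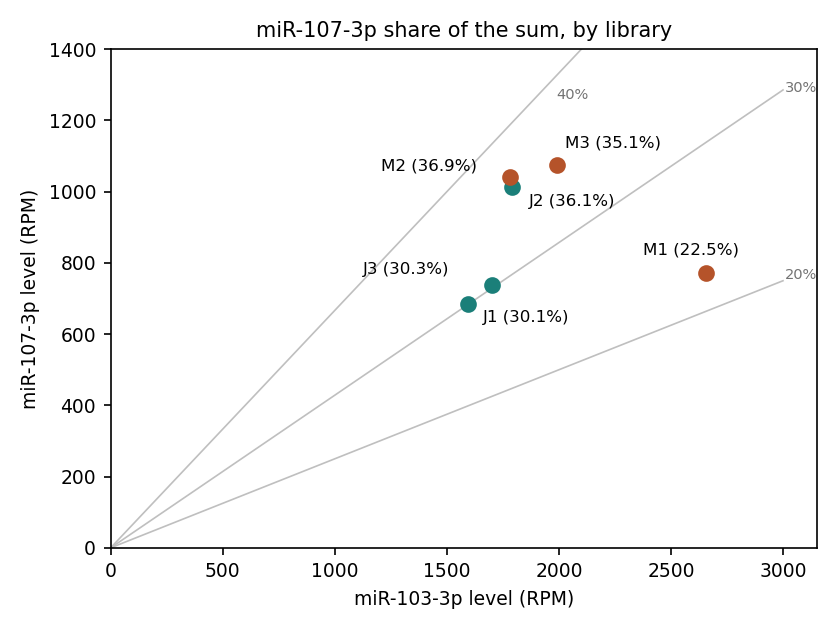
Level of miR-107-3p (vertical axis, RPM) against that of miR-103-3p (horizontal axis, RPM) in each of 6 libraries, J1 to J3 of the J group in green and M1 to M3 of the M group in orange. Grey lines join equal shares of miR-107-3p in the sum, and the share of each library is written beside its point. M1 lies alone at 22.5%, with the highest miR-103-3p and a low miR-107-3p.

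M group replicate 1 was the library in which the pair came apart. It had the highest mmu-miR-103-3p of all, 1.33 times the next library, while its mmu-miR-107-3p was 0.718 times that of the highest other library. In the other 5 libraries both were lowest in J group replicate 1, next lowest in J group replicate 3 and highest in M group replicate 3. The same library had high levels of some miRNAs known from blood-derived immune cells. The summed level of the 6 listed was 6025 RPM there, against 831 to 1128 RPM in the J group and 1464 and 1641 RPM in the other M libraries. mmu-miR-142a-3p was 9.43 times, mmu-miR-142a-5p 3.86 times and mmu-miR-146a-5p 2.13 times the highest other library. mmu-miR-223-3p and mmu-miR-155-5p were not at their highest there (0.658 and 0.475 times the highest other library). Of the 6, 1 passed the thresholds, mmu-miR-146a-5p, lower in the J group, as did 3.83% of all miRNAs tested, and none was at 0 in any library. The 4 stromal miRNAs with a row summed to 25242 RPM in it and to 12582 to 20214 RPM elsewhere, and 3 of these 4 (mmu-miR-199a-5p, mmu-miR-214-3p and mmu-miR-145a-5p) passed the thresholds, lower in the J group. The study had picked these 3 on the same libraries, so their direction is no independent evidence. The 5 of bile duct epithelium summed to 4298 RPM in it against 950.1 to 2379 RPM. By limma 0 of them passed, though the study had picked mmu-miR-200c-3p of these on the same libraries. Of the other lists, endothelium (1 of 2 miRNAs had a row) was at 4761 RPM in it and at 4166 to 6718 RPM elsewhere, and red blood cells (2 of 3) at 4048 RPM against 2534 to 9724 RPM. The part of these cell types in the level of miR-103-3p was not tested.
Without M group replicate 1, the M group mean of mmu-miR-103-3p was 1887 RPM (n = 2) and the groups differed by -0.15 on the log2 scale (standard error 0.17, adjusted p = 0.91 by limma). For mmu-miR-107-3p the mean was then 1059 RPM (n = 2) and the log2 fold change -0.40 (standard error 0.23, adjusted p = 0.85). The library thus made the difference of one member larger and that of the other smaller. The sum was moved less, to -0.24 on the log2 scale (standard error 0.18, adjusted p = 0.91 by limma), with a ratio of means of 0.851.

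Other miRNAs hold part of the same seed one base further along. The run GCAGCA stands at bases 2 to 7 of miR-103 and at bases 3 to 8 of the miR-15, miR-16, miR-195, miR-322 and miR-497 family, which is known for restraining cyclins and BCL2. The shared run is in capitals. In the file the name of the mmu-miR-16-5p row also ends in a substitution, C7G, which lies inside that run, and the sequence given is that of RefSeq without it.
mmu-miR-103-3p: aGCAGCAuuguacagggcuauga
mmu-miR-16-5p: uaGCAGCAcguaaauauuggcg
mmu-miR-15b-5p: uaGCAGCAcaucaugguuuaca
mmu-miR-322-5p: caGCAGCAauucauguuuugga
Of the 1679 RefSeq miRNAs, 13 (0.774%) hold this run inside bases 2 to 8. Of the 7 miRNAs listed for this family, 6 hold it, while mmu-miR-503-5p has a seed that differs from it in the last base (AGCAGCG). A shared run is a description of the letters and does not show shared targets.

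All 7 were tested and 0 of 7 passed the thresholds, against 5.29% of all miRNAs. Their median log2 fold change was -0.21, against -0.13 over all miRNAs tested, and 6 of 7 were below 0. mmu-miR-16-5p, the most abundant, had 2420, 2398 and 2943 RPM in the J libraries and 4323, 2547 and 3138 RPM in the M libraries. Like miR-103 it was highest in M group replicate 1, and the groups overlapped. Treated and untreated mice differed by -0.34 on the log2 scale (standard error 0.22, adjusted p = 0.71 by limma), nearly the value of mmu-miR-103-3p. Without that library it was -0.13, without M group replicate 2 -0.52, and under quantile normalization -0.16. mmu-miR-15b-5p had 29.4, 51.6 and 39.2 RPM with JTXK and 189, 34.0 and 57.3 RPM with water. Here M group replicate 1 was 3.30 times the highest other library, and the log2 fold change went from -0.86 (standard error 0.60, adjusted p = 0.71) to -0.17 without it. Without M group replicate 2, mmu-miR-15b-5p passed the thresholds at -1.39. mmu-miR-322-5p had 45.7, 50.8 and 56.7 RPM in the J libraries and 106.6, 81.8 and 58.2 RPM in the M libraries. The J group was lower with no overlap, as it was for 9.31% of the miRNAs tested. The difference of -0.64 on the log2 scale (standard error 0.29, adjusted p = 0.71) did not pass, but did without M group replicate 3 (-0.86) or with only miRNAs of at least 10 RPM fitted (-0.64). It was -0.43 without M group replicate 1 and -0.42 under quantile normalization. The other 4 had differences nearer to 0, mmu-miR-15a-5p at -0.21, mmu-miR-195a-5p at -0.21, mmu-miR-503-5p at -0.19 and mmu-miR-497a-5p at 0.08. Without M group replicate 1, mmu-miR-15a-5p was at 0.0039, mmu-miR-503-5p at 0.10 and mmu-miR-195a-5p at -0.21. The value of mmu-miR-195a-5p was -0.073 without M group replicate 3 and -0.33 without M group replicate 2, and without M group replicate 2 mmu-miR-497a-5p was at -0.27.

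A second list held 13 miRNAs that are known for control of glucose or insulin action in liver, or that lie in introns of metabolic genes. It shares mmu-miR-122-5p with the hepatocyte list and mmu-miR-143-3p with the stromal list. Of these, 1 passed the thresholds lower in the J group, 0 passed higher and 12 did not pass, while of all miRNAs tested 3.83% passed lower and 1.46% higher, so 1 of 13 is near the share over all. Their median log2 fold change was -0.15, and 12 of 13 were below 0, against -0.13 and 58.9% over all miRNAs tested. The one that passed was mmu-let-7a-5p, of the let-7 family that represses the insulin receptor and IRS2. Like 9.31% of the miRNAs tested, it was lower in the J group with no overlap between the groups. It had 7862, 6804 and 7316 RPM in the J libraries and 10551, 11844 and 9585 RPM in the M libraries. Its log2 fold change was -0.54 (standard error 0.14, unadjusted p = 0.00630 and adjusted p = 0.43 by limma). By edgeR and by DESeq2 its log2 fold change was -0.43 and it did not pass. The study had itself picked mmu-let-7a-5p and mmu-let-7b-5p on these libraries, so their direction is no independent evidence.
mmu-miR-181b-5p had the lowest log2 fold change of the list, with 83.4, 79.6 and 91.6 RPM after JTXK and 1464, 73.9 and 99.9 RPM after water. M group replicate 1 was 14.7 times the highest other library. With it the difference was -1.38 on the log2 scale (standard error 1.03, adjusted p = 0.71), and without it -0.020. The difference was -2.16 without M group replicate 2, -2.52 by edgeR and -2.53 by DESeq2. mmu-miR-29c-3p, highest of the list, had 386, 471 and 420 RPM in the J libraries and 309, 396 and 442 RPM in the M libraries. The groups overlapped, and the difference was 0.17 on the log2 scale (standard error 0.21, adjusted p = 0.81). It was 0.020 without M group replicate 1, 0.090 without J group replicate 2, 0.28 without M group replicate 3 and 0.48 under quantile normalization. miR-103 and miR-107 lay between these ends, nearer to the median of all miRNAs than mmu-let-7a-5p.

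**Figure D3:**
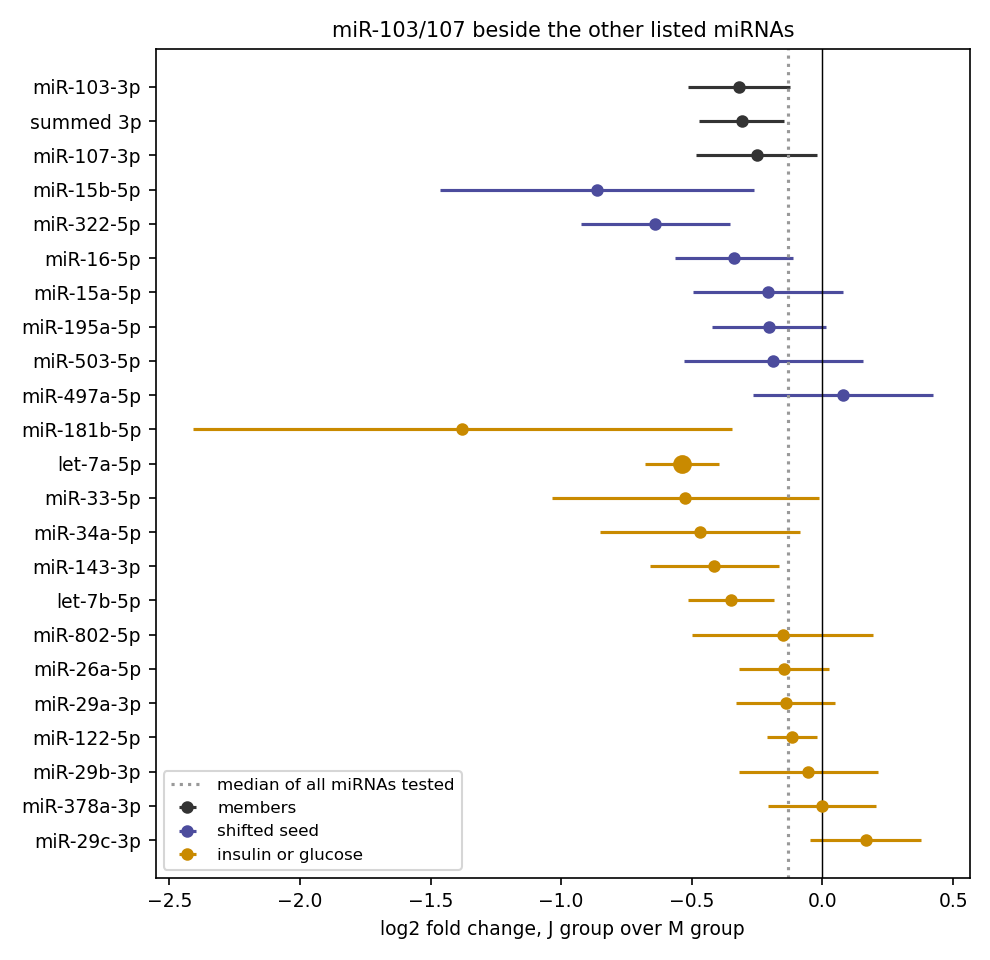
Log2 fold change of the J group over the M group (horizontal axis) with its standard error from limma, for miR-103-3p, miR-107-3p and their sum (black, labelled summed 3p), the 7 miRNAs with a shifted or similar seed (blue) and the 13 miRNAs of the insulin and glucose list (yellow). The dotted line is the median of all 548 miRNAs tested, and the larger point, let-7a-5p at -0.54, is the one that passed the thresholds.

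The miRNAs whose level was most like that of the sum were sought among the 280 others tested with a mean of at least 10 RPM, by Pearson's correlation of log2(RPM + 1) over the 6 libraries, as a description. mmu-miR-140-5p came nearest (r = 0.996), with 28.5, 43.8 and 34.2 RPM in the J libraries and 67.4, 43.4 and 55.6 RPM in the M libraries. Like the sum, it was lowest in J group replicate 1, highest in M group replicate 1, and nearly equal in J group replicate 2 and M group replicate 2. mmu-miR-148b-5p (r = 0.971), mmu-miR-24-3p (r = 0.933), mmu-miR-185-5p (r = 0.922) and mmu-miR-1943-5p (r = 0.908) followed. All 5 had a log2 fold change below 0, from -0.35 for mmu-miR-148b-5p and mmu-miR-24-3p to -0.65 for mmu-miR-1943-5p. The thresholds, passed by 5.29% of all miRNAs tested, were passed by 0 of these 5. They were chosen for following a sum that was lower in every J library, so their direction came with the choice and is no result. Without M group replicate 2, mmu-miR-140-5p (-0.79) and mmu-miR-1943-5p (-0.93) passed, and mmu-miR-140-5p also passed without J group replicate 2 (-0.79) or with only miRNAs of at least 10 RPM fitted (-0.63). Other settings brought the values nearer to 0. Without M group replicate 1, mmu-miR-140-5p was at -0.48, mmu-miR-1943-5p at -0.43 and mmu-miR-24-3p at -0.22, and without J group replicate 1 mmu-miR-24-3p was at -0.21. Under quantile normalization mmu-miR-140-5p was at -0.33, mmu-miR-148b-5p at -0.18, mmu-miR-24-3p at -0.049 and mmu-miR-185-5p at -0.029. mmu-miR-185-5p, with 404 to 510 RPM in the J group and 583 to 627 RPM in the M group, was the only one of the 5 with no overlap, as 9.31% of all miRNAs tested were lower in the J group with no overlap. The study had picked mmu-miR-185-5p on these libraries too, by a test it does not state. The study also measured this miRNA by quantitative PCR and reported a result that matched the sequencing. These miRNAs were chosen for their likeness among many over 6 libraries that share the scaling to all miRNA reads.

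**Figure D4:**
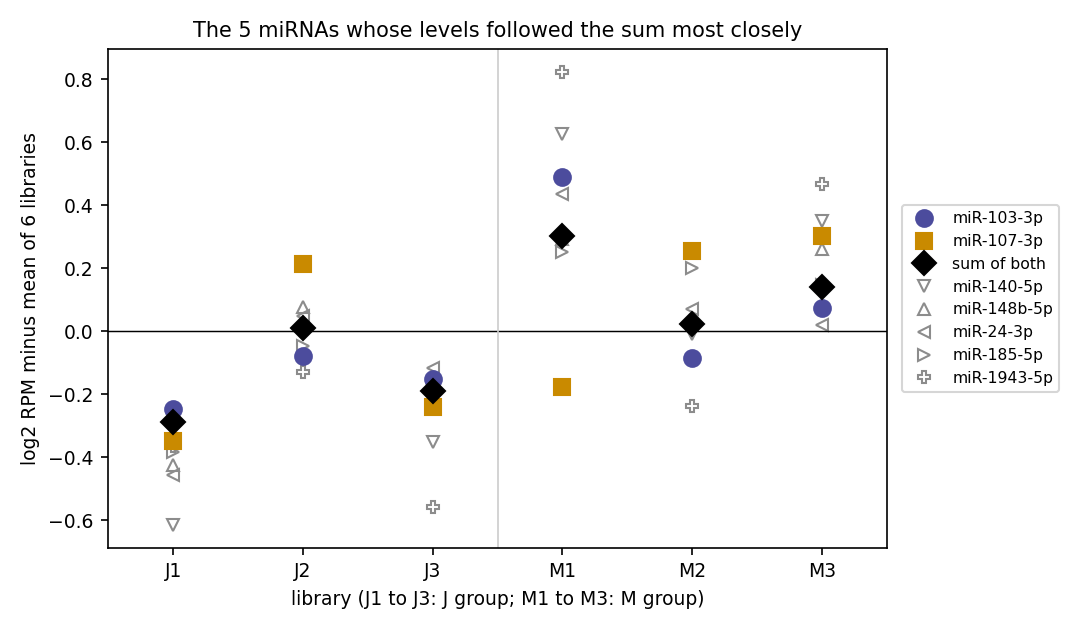
Log2 RPM minus the mean of the 6 libraries (vertical axis) in each library (horizontal axis) for miR-103-3p, miR-107-3p, their sum and the 5 miRNAs whose level was most like the sum (open grey symbols). The sum is lowest in J1 and highest in M1, and miR-107-3p in M1 lies below 0 while miR-103-3p lies above it.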

How the data were processed

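Small RNA libraries of 6 livers were compared, J group against M group, 3 mice each, with groups and replicate numbers taken from the titles. The authors cleaned the reads, annotated them against Rfam and miRBase, and deposited RPM values, each per 1000000 miRNA reads of the library. The submitters' processing notes name mm9, and the aligner and the rule for reads that match several miRNAs are not given in the sources used here. All values were whole multiples of 1 read (within 0.01 read), so reads were recovered. log2(RPM + 1) was fitted by limma 3.58.1 (R 4.3.3, variance trend, two-sided) over the 548 rows with a mean above 1 RPM in a group, with Benjamini-Hochberg adjustment. edgeR 4.0.16 and DESeq2 1.42.0 on recovered reads were alternatives, beside other pseudocounts, filters and scalings, a term for the replicate number, and each library left out. The fit was also run on simulated counts with planted changes larger than those of the members, and no result here rests on that run. Single values were tested by exact permutation (scipy 1.17.1). Intervals are 95% Wilson and, like the limit of 3 reads, cover counting error only. Positions are those of GENCODE (GRCm38) and sequences those of RefSeq, since the table has no coordinates. Named are all members, the shifted-seed list, the ends and calls of the insulin list, and the 5 miRNAs most like the sum. The members, lists, thresholds and tests were chosen with earlier results of these data known.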

Additional observations from a re-analysis of the deposited data

How the results depend on the processing

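The thresholds were passed by neither mmu-miR-103-3p, nor mmu-miR-107-3p, nor their sum under any of 18 alternatives. mmu-miR-103-3p and mmu-miR-107-3p stayed below 0 under all 18, from -0.44 to -0.08 and from -0.42 to -0.14 on the log2 scale. The sum did so under 17, and quantile normalization put it at 0.038 while each member alone stayed below 0. That scaling moved the median of all miRNAs from -0.13 to 0.05. With each library left out, the log2 fold change was -0.44 to -0.15 for mmu-miR-103-3p, -0.42 to -0.14 for mmu-miR-107-3p and -0.39 to -0.24 for the sum. Scaling by the median of ratios gave -0.21, -0.14 and -0.20 in the same order, edgeR -0.23, -0.16 and -0.21, and DESeq2 -0.22, -0.15 and -0.20.

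The share of miR-107-3p in the sum differed by -3.83 to 3.35 percentage points with each library left out, and it was below 0 without M group replicate 1 (-3.83) or J group replicate 2 (-1.33). Of the miRNAs with a similar seed, mmu-miR-15a-5p was at 0.092 and mmu-miR-195a-5p at 0.087 under quantile normalization. With single libraries left out, mmu-miR-15a-5p ranged from -0.41 to 0.0039, mmu-miR-503-5p from -0.40 to 0.10 and mmu-miR-497a-5p from -0.27 to 0.30. The count of 29 miRNAs past the thresholds was 45 by edgeR and 21 to 46 with a library left out, the 46 without M group replicate 2. Of the 29, 8 were higher, against 17 of 30 after median-of-ratios scaling and 17 of 29 after quantile normalization. The causes were not tested.

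The replicate numbers are not known to pair mice, and the deviations of same-numbered libraries had correlations of -0.00587 to 0.0584. With the replicate number as a block the log2 fold changes were -0.32 (standard error 0.21), -0.25 (0.21) and -0.31 (0.18) for mmu-miR-103-3p, mmu-miR-107-3p and the sum, the share differed by 0.658 points, and 27 miRNAs passed. Depth limited mmu-miR-107-5p, at 0 to 4 reads a library, and the gap of the sum between J group replicate 2 and M group replicate 2.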
